A study of Mus musculus with 32 samples.

Results

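Mitosis genes were examined as a set of 34 genes in mouse leukemia cells driven by MLL-Af4, a fusion of a chromatin regulator with a partner protein that is found in infant leukemia. The genes were taken by symbol from a list of mitotic factors, and all 34 were among the genes measured by RNA-seq, 26560 in Lin- cells and 25887 in CD11b+ cells. The list comprised the mitotic cyclins and CDK1 with the phosphatase Cdc25c, the mitotic kinases, the spindle checkpoint and anaphase-promoting complex, the chromosomal passenger proteins, kinetochore proteins, kinesins, spindle and cytokinesis proteins, and the chromosome proteins Mki67 and Top2a. Binding of the RNA-binding protein IGF2BP3 was measured by eCLIP, in which protein and RNA are crosslinked with UV light, the protein is precipitated and the attached RNA fragments are sequenced. Of each immunoprecipitated sample, a small part was sequenced as a size-matched input (smInput), which serves as the background.

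The Lin- cells were lineage-depleted bone marrow cells of C57BL/6J mice that were transduced with the retrovirus MSCV-MLL-flag-Af4, selected in G418 and cultured. Per the protocol, the CD11b+ cells were selected by magnetic sorting from splenic tumors of mice transplanted with MLL-Af4 cells. The deposited names of the eCLIP libraries begin with bm in both cell types, which the protocol does not explain, and the source of the CD11b+ cells used for eCLIP is therefore uncertain. The eCLIP and smInput libraries came from WT/MLL-Af4 cells, with 6 eCLIP libraries of Lin- cells (3 biological and 3 technical replicates) and 4 of CD11b+ cells (2 biological and 2 technical replicates). RNA-seq had been done in WT/MLL-Af4 cells and in I3KO/MLL-Af4 cells, which lack Igf2bp3 from the germline, with 3 libraries of each genotype and cell type. Only the deposited mean over both genotypes was used here, so that no genotype was compared. The myeloid genes Mpo, Elane and Lyz2 stood between the 99.6th and the 99.9th percentile of the measured genes in both cell types by count per kb of exon, whereas Itgam, which encodes CD11b itself, had a mean normalised count of 17.0 in the CD11b+ table and was not analysed in Lin- cells. The hemoglobin gene Hba-a1 had a mean normalised count of 5.85 in Lin- and of 1268 in CD11b+ cells. The part of red cells in the differences between cell types was not tested.

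In mitosis, CDK1 with cyclin A or cyclin B phosphorylates many proteins to condense the chromosomes and build the spindle. Kinetochores tie chromosomes to microtubules, the spindle checkpoint holds the anaphase-promoting complex until every chromosome is attached, and that complex then marks cyclin B and securin for degradation. The transcripts of these genes accumulate late in the cell cycle, so that their level in a cell population reflects how many cells are close to division. IGF2BP3 is an oncofetal protein best known for holding on to mature transcripts, often in the 3′ UTR.

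Of the IGF2BP3 sites in the mitosis genes, most of those shared by biological libraries of a cell type lay at the 3′ end of an intron. Peaks of the 34 genes merged into 112 regions, and those of all genes into 32929. A single library held 71 (63.4%) of the 112, against 57.55% over all genes. At least 2 biological libraries of a cell type shared 18 (16.1%), against 21.7%. Peaks of both cell types lay in 7 (6.25%), against 15.3%. The 18 shared regions lay in 9 genes, and every one of the 18 had its middle in an intron. Of them, 14 were shared among Lin- libraries and 4 among CD11b+ libraries, and 0 of 18 were shared by at least 2 biological libraries in both. Over all genes, 1001 of 7146 shared regions (14.01%) were shared so in both cell types. The sequences below show what these sites look like in the genome (GRCm38, 5′ to 3′ on the strand of the gene).

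At 13 of the 18 regions the middle lay within 100 nt of the next exon. For 6 of these, chosen among those with the most libraries in a gene, the last 24 bases of the intron are printed in lower case and the first 6 bases of the exon in capitals, so that the step from one to the other is the 3′ splice site.
Mki67, chr7:135704790-135704819, minus strand: tcataaatgactctgccttgtcagGAACGG
Mki67, chr7:135690128-135690157, minus strand: tgtggttttttttttcccaaacagGATGAA
Top2a, chr11:99009694-99009723, minus strand: ttgtatgtttgttggcttctatagGTTTGG
Incenp, chr19:9883828-9883857, minus strand: cctgaccccggccctggtctgtagGTGGTA
Ect2, chr3:27137156-27137185, minus strand: gatggaacctttcttctttcccagAAACAC
Aurkb, chr11:69047948-69047977, plus strand: ctcaacataattctctctccttagCTGCCC
All 13 introns ended in AG. Their last 24 bases held a median of 66.7% pyrimidines (range 58.3% to 79.2%), and the median over the 535 AG-ending introns of the 34 genes was also 66.7%.

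The other 5 shared regions lay away from a 3′ splice site, and 3 of them were stretches of alternating T and G deep in an intron. For these, the 30 bases at the middle of the stretch shared by the libraries are printed, with runs of TGTG or GTGT in capitals.
Anln, chr9:22344694-22344723, minus strand: GTGTGTaTGTGTGTGTGTGTGTagatagcc
Kif11, chr19:37381923-37381952, plus strand: TGTGTGTGTGTGTGTGTGGTGTGTGTGTGT
Bub1b, chr2:118616972-118617001, plus strand: TGTGTaggggGTGTGTGTGTatggGTGTGT
These 3 regions were each shared by the 2 biological CD11b+ libraries. Such repeats were not particular to mitosis genes. TGTGTG or GTGTGT occurred in 16 of the 41 CD11b+ peaks of the mitosis genes (39.0%) and in 25.2% of all 33246 CD11b+ peaks, and in 3 of 141 Lin- peaks (2.13%) against 6.89% of all 41132 Lin- peaks. The complementary repeat read on the same strand, ACACAC or CACACA, occurred in 0 of 141 Lin- peaks (which allows a share of up to 2.13%) and 2 of 41 CD11b+ peaks (4.88%) of the mitosis genes, and in 8.25% and 16.4% of all peaks. The letters TGGAC were found in 4 Lin- peaks (2.84%) and 1 CD11b+ peak (2.44%) of the mitosis genes, against 2.42% and 1.58% of all peaks. Peaks of 1 gene in replicate libraries overlap, so these counts are not independent of each other.

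Counted over all libraries, 28 of the 34 mitosis genes (82.4%) had at least 1 filtered peak in Lin- cells, that is, a peak left after removal of peaks that overlap smInput peaks. Of all 26560 genes measured in Lin- cells, 26.5% had one, and among the 8485 genes with a mean normalised count in the range of the mitosis genes 66.8%. In CD11b+ cells, 14 of the 34 (41.2%) had a filtered peak, against 25.6% of all genes and 51.8% of the 9728 genes in the same range of means. The share of mitosis genes was thus above that of genes in this range in Lin- cells and below it in CD11b+ cells. The range runs from the lowest to the highest mitosis gene, and levels were not matched within it. By mean, the median mitosis gene stood at the 82.5th percentile in Lin- and the 70.9th in CD11b+ cells, among genes with a mean of at least 10. From the biological libraries alone, 25 mitosis genes had a peak in Lin- cells (against 24.6% of all genes and 62.4% of those in the range) and 13 in CD11b+ cells (against 21.7% and 44.6%). In at least 2 biological libraries, 15 mitosis genes had peaks in Lin- cells (44.1%, against 13.7% of all genes and 37.7% of those in the range) and 5 in CD11b+ cells (14.7%, against 10.2% and 22.2%). There were 11 genes with peaks in both cell types, 17 with peaks in Lin- libraries alone, 3 in CD11b+ libraries alone and 3 with none. Of the 7587 genes whose means lay in the range of the mitosis genes in both tables, 47.6% had peaks in both cell types, 20.9% in Lin- alone, 11.7% in CD11b+ alone and 19.9% in neither. Lin- cells had 6 libraries and CD11b+ cells 4, and the difference from these genes was not tested. Across the 34 genes, the number of Lin- peaks followed the level per kb (Spearman's rho 0.49) more than the length of the gene (rho -0.05), and likewise in CD11b+ cells (rho 0.45 and 0.04). These correlations describe genes measured in the same libraries.

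**Figure D1:**
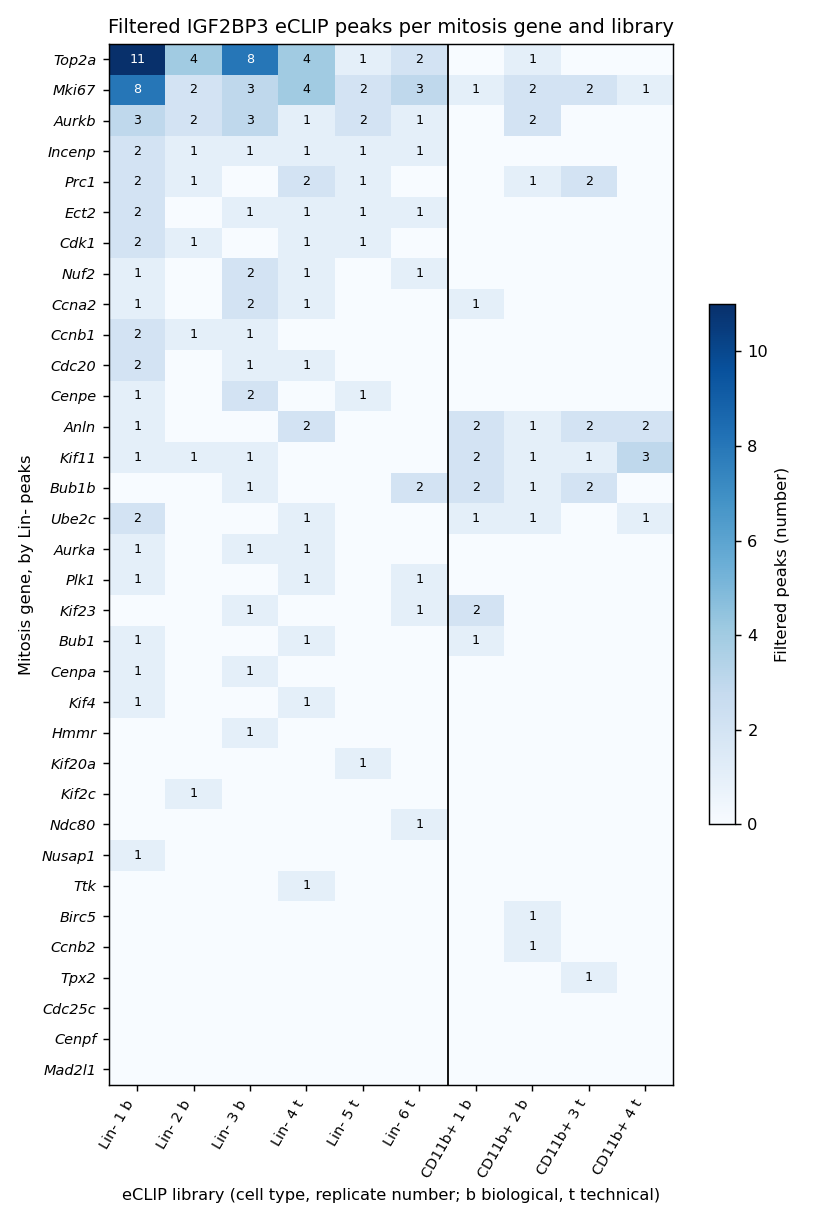
Number of filtered IGF2BP3 eCLIP peaks in each of the 34 mitosis genes (rows, ordered by their Lin- peaks) in each of the 10 libraries (columns). Top2a and Mki67 held 52 of the 141 Lin- peaks, 3 of them at a small nucleolar RNA inside Top2a, while Anln and Kif11 led in CD11b+ cells with 7 peaks each.

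In the biological Lin- libraries, 47, 14 and 30 filtered peaks lay in mitosis genes, and in the biological CD11b+ libraries 12 and 12. As a share of all filtered peaks this was 0.639% (95% Wilson interval 0.481% to 0.848%), 0.139% (0.0831% to 0.234%) and 0.345% (0.242% to 0.4927%) in Lin- replicates 1, 2 and 3, and 0.141% (0.0806% to 0.246%) and 0.119% (0.0683% to 0.209%) in CD11b+ replicates 1 and 2. The Lin- libraries were spread widely, and replicate 2 lay level with the CD11b+ libraries. Lin- cells had a mean of 0.374% ± 0.251 (SD, n = 3), CD11b+ cells one of 0.130% ± 0.0152 (SD, n = 2), and the difference of 0.244 percentage points was within the spread between replicates (exact permutation test, two-sided, p = 0.3, where 0.1 is the smallest p that 3 against 2 libraries allow). The 3 technical Lin- libraries had shares of 0.619%, 0.169% and 0.310%, and the technical CD11b+ libraries 0.132% and 0.0988%. Without Lin- replicate 1 the difference was 0.112 percentage points, and without Top2a and Mki67 it was 0.117 (p = 0.5, exact permutation test). The number of mitosis genes with a peak was 21, 9 and 16 in the Lin- libraries and 8 and 10 in the CD11b+ libraries, a difference in means of 6.33 genes (exact permutation test, two-sided, p = 0.3), and 3.5 genes without Lin- replicate 1. The libraries held 4040 to 10054 filtered peaks each, and the intervals cover counting error alone, since the peak lists give no total of reads.

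**Figure D2:**
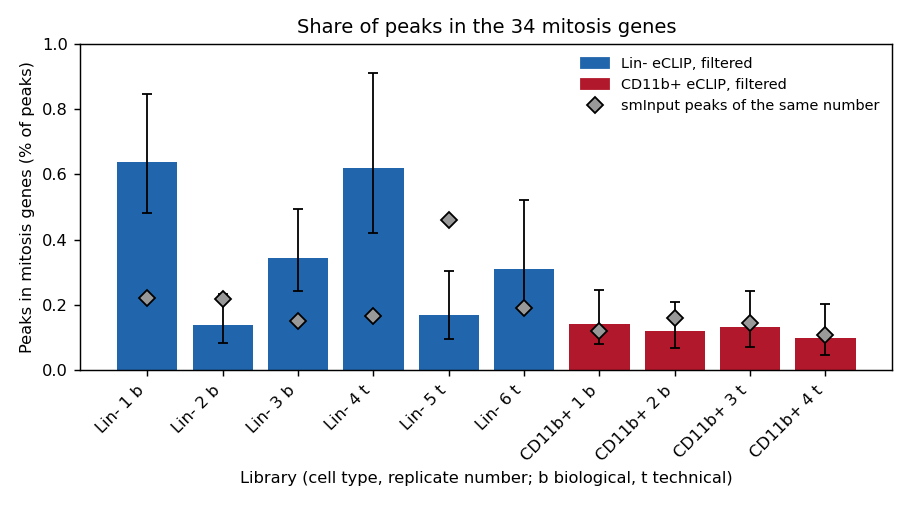
Share of peaks that lay in the 34 mitosis genes, in percent, for each of the 10 libraries. Bars show filtered eCLIP peaks with 95% Wilson intervals, and diamonds show the smInput of the same number. Lin- replicates 1, 3, 4 and 6 stood above 0.3%, and the other 6 libraries below 0.2%.

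The chromosome proteins carried the most sites. Top2a encodes the topoisomerase that untangles sister chromatids. It had 11, 4 and 8 filtered peaks in the biological Lin- libraries, 4, 1 and 2 in the technical ones, and in CD11b+ cells 1 peak in replicate 2. In Lin- replicate 2, 2 of the 4 peaks lay at a small nucleolar RNA inside the gene, described below with the smInput. The only Top2a peak of Lin- replicate 5 lay there too. Mki67, whose protein coats mitotic chromosomes and is the common stain for dividing cells, had 8, 2 and 3 peaks in the biological Lin- libraries, 4, 2 and 3 in the technical ones, and 1, 2, 2 and 1 in the CD11b+ libraries. Together Top2a and Mki67 held 36.9% of the Lin- peaks of the 34 genes, with the peaks at the small nucleolar RNA counted. One Mki67 region, chr7:135704775-135704846 in intron 7, had a peak in all 6 Lin- libraries, with 24, 8, 10, 16, 4 and 3 reads, and in 0 of 4 CD11b+ libraries. Its middle lay 15 nt before the next exon. A Mki67 region 21 nt before an exon, chr7:135690123-135690186 in intron 13, held peaks in Lin- replicates 1, 3 and 6 with 12, 9 and 8 reads and in CD11b+ replicate 2 with 5 reads. The Top2a region chr11:99009701-99009766 in intron 15 had 22, 4, 3 and 10 reads in Lin- replicates 1 to 4.

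Among the cyclins and CDK1, Cdk1, the kinase that drives entry into mitosis, had 2, 1 and 0 peaks in the biological Lin- libraries and 1, 1 and 0 in the technical ones, and none in CD11b+ cells. Ccnb1, which encodes cyclin B, had 2, 1 and 1 peaks in the biological Lin- libraries and none in the other 7 libraries. Ccna2, which encodes cyclin A, had 1, 0 and 2 peaks in the biological and 1, 0 and 0 in the technical Lin- libraries, and 1 peak of 3 reads in CD11b+ replicate 1, which lay in the 3′ UTR where Exosc9 overlaps it on the opposite strand. Ccnb2 had 1 peak, in CD11b+ replicate 2, and Cdc25c had none in any library.

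Of the 5 mitotic kinases, all had a peak in Lin- cells and 2 in CD11b+ cells. The shares over genes in the range of means were the 66.8% and 51.8% given above. Aurkb, the kinase of the chromosomal passenger complex, had 3, 2 and 3 peaks in the biological Lin- libraries, 1, 2 and 1 in the technical ones and 2 peaks in CD11b+ replicate 2. Its region 9 nt before an exon, chr11:69047926-69048001, was found in Lin- replicates 1, 3, 4 and 6 with 8, 3, 4 and 3 reads and in CD11b+ replicate 2 with 5 reads. In Lin- replicates 2 and 5, Aurkb had instead a peak of 16 and 6 reads in the 5′ UTR at chr11:69045894-69045958. Aurka, which builds the spindle poles, had 1, 0 and 1 peaks in the biological Lin- libraries and 1 in technical replicate 4. Bub1, a checkpoint kinase, had 1 peak in each of Lin- replicates 1 and 4 and 1 in CD11b+ replicate 1. Plk1 had 1 peak in each of Lin- replicates 1, 4 and 6, and Ttk 1 peak in replicate 4.

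The spindle checkpoint and anaphase-promoting genes were divided. Cdc20, the activator of the anaphase-promoting complex, had 2, 0 and 1 peaks in the biological Lin- libraries, 1 in technical replicate 4 and none in CD11b+ cells. Bub1b, which encodes the checkpoint protein BubR1, had the opposite lean, with 2 and 1 peaks in the biological and 2 and 0 in the technical CD11b+ libraries, and in Lin- cells 1 peak in replicate 3 and 2 in replicate 6. The Bub1b region with the TG repeat held 17, 8 and 22 reads in CD11b+ replicates 1, 2 and 3 and 4 reads in Lin- replicate 6. Ube2c, the ubiquitin-conjugating enzyme of the complex, had 2 peaks in Lin- replicate 1, 1 in replicate 4 and 1 in each of CD11b+ replicates 1, 2 and 4. Those of CD11b+ replicates 2 and 4, with 4 and 8 reads, lay in the 3′ UTR at chr2:164772680-164772753. Mad2l1 had no peak in any library.

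Incenp, the scaffold of the chromosomal passenger complex, had a peak in every Lin- library (2, 1, 1, 1, 1 and 1) and in 0 of 4 CD11b+ libraries. Its region chr19:9883813-9883912 in intron 9 held 9, 9, 4, 7 and 4 reads in Lin- replicates 1, 2, 4, 5 and 6. Birc5, another subunit of that complex, had 1 peak of 3 reads, in CD11b+ replicate 2. Of the centromere and kinetochore genes, Nuf2 had 1, 0 and 2 peaks in the biological and 1, 0 and 1 in the technical Lin- libraries, Cenpe 1, 0 and 2 and then 0, 1 and 0, and Cenpa, the centromeric histone, 1 in each of replicates 1 and 3. Ndc80 had 1 peak, in Lin- replicate 6, and Cenpf none. None of these 5 had a peak in a CD11b+ library. Over all genes 25.6% had one, and 51.8% of those in the range of means.

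Anln and Kif11, a cytokinesis and a kinesin gene, had the most CD11b+ peaks among the 34 genes, with 7 each. Kif11, the kinesin that pushes the spindle poles apart, had 2 and 1 peaks in the biological and 1 and 3 in the technical CD11b+ libraries, and 1 in each biological Lin- library. Its TG-repeat region chr19:37381899-37381975 in intron 1 held 11, 9 and 10 reads in CD11b+ replicates 1, 2 and 3 and no Lin- peak, while a second region of the same intron, chr19:37377122-37377168, held 4 and 3 reads in Lin- replicates 2 and 3 and 4 reads in CD11b+ replicate 4. Anln encodes anillin, which organizes the contractile ring. It had 2, 1, 2 and 2 peaks in the CD11b+ libraries, and in Lin- cells 1 peak in replicate 1 and 2 in replicate 4. Its TG-repeat region chr9:22344675-22344759 in intron 20 had a peak in all 4 CD11b+ libraries, with 11, 14, 21 and 17 reads, and in 0 of 6 Lin- libraries. Ect2, the exchange factor that starts furrowing, showed the reverse with 2, 0 and 1 peaks in the biological and 1, 1 and 1 in the technical Lin- libraries and none in CD11b+ cells. Its region chr3:27137148-27137210 in intron 12 held 16, 7, 10 and 5 reads in Lin- replicates 1, 3, 4 and 5. Kif23 had 1 peak in each of Lin- replicates 3 and 6 and 2 in CD11b+ replicate 1. Kif4 had 2 Lin- peaks, and Kif20a and Kif2c 1 each.

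Of the spindle microtubule proteins, Prc1, which bundles microtubules at the midzone, had 2, 1 and 0 peaks in the biological and 2, 1 and 0 in the technical Lin- libraries, and 1 and 2 in CD11b+ replicates 2 and 3. As in Aurkb, the peaks of Lin- replicates 2 and 5 lay in the 5′ UTR, at chr7:80294521-80294540, with 10 and 4 reads, where the smInput of Lin- replicate 1 had a peak of 6 reads. The Prc1 peaks all lay within the interval of Rccd1 on the opposite strand, and peaks were assigned by strand. Hmmr and Nusap1 each had 1 Lin- peak and Tpx2 1 CD11b+ peak, in each case in a single library.

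In the smInput libraries, the mitosis genes were represented almost entirely by 2 sites. Of the 23 smInput peaks that carried the ID of a mitosis gene, 11 lay in a single intron of Top2a, at the annotated small nucleolar RNA Gm23451 (chr11:99017031-99017152, 122 bases, same strand), and 10 at the edge of a Kif2c exon near chr4:117170139-117170141. The snoRNA site had smInput peaks in 9 of 10 libraries. The Kif2c site had one in all 10, at most 12 bases wide, with 4 to 417 reads in the Lin- smInputs and 247 to 1186 in the CD11b+ smInputs. Elsewhere there were 2 smInput peaks, 1 in Mki67 and 1 in Prc1. Before the filter, eCLIP libraries had 32 peaks at the Top2a snoRNA, found in all 10 libraries and with up to 206 reads in a peak. The filter left 3 of these 32 peaks, 2 in Lin- replicate 2 and 1 in Lin- replicate 5, and removed 2 Kif2c peaks. No other peak of a mitosis gene was removed.

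The share of peaks in mitosis genes before the filter was therefore compared between eCLIP and smInput with and without these sites. With them, it was 0.271% ± 0.179 in the 5 biological eCLIP libraries and 0.174% ± 0.0442 in their smInputs (SD, n = 5 each), a difference within the spread between libraries (exact permutation test, two-sided, p = 0.349). Of the 5 libraries, 3 were above their own smInput, 2 of them Lin- and 1 CD11b+. The Top2a snoRNA and the Kif2c site held 21 of the 23 smInput peaks and 34 of the 213 eCLIP peaks before the filter. Without them the means were 0.230% and 0.0217%, given as a description with no test, since the sites were chosen for holding the smInput peaks. The smInput peaks were called with other settings than the eCLIP peaks. The excess over smInput was 0.164 percentage points in Lin- cells and -0.00364 in CD11b+ cells with the sites kept, and the difference between the cell types was within the spread (exact permutation test, two-sided, p = 0.3).

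Peaks of the mitosis genes lay in introns. By the middle base, 130 of 141 Lin- peaks (92.2%) and 37 of 41 CD11b+ peaks (90.2%) were intronic. In the biological libraries alone it was 91.2% and 91.7%. Introns made up 86.0% of the length of these genes, and 71.8% of all Lin- and 83.1% of all CD11b+ peaks were intronic. The counts pool libraries that repeat the same sites, so no interval is given. The difference from these shares was not tested. The 11 exonic Lin- peaks comprised 7 in 5′ UTRs, 2 in coding exons and 2 in 3′ UTRs, and the 4 exonic CD11b+ peaks 3 in 3′ UTRs and 1 in a coding exon. The exonic share was 0% (0 of 47 peaks, which allows up to 6.38%), 35.7% and 10% in the biological Lin- libraries and 8.33% in each of the CD11b+ libraries, a mean difference of 6.90 percentage points that turned to -3.33 without Lin- replicate 2 (exact permutation test, two-sided, p = 0.8 with all 5 libraries). Counted by any base, the result was another one. Just 22.0% of the peaks in the biological Lin- libraries and 66.7% of those in the CD11b+ libraries lay wholly in an intron. The exonic share by this count was 42.5 percentage points higher in Lin- cells (exact permutation test, two-sided, p = 0.1, the smallest that 3 against 2 libraries allow). The count by any base was not made over all genes, so whether this difference is particular to mitosis genes was not tested.

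The Lin- peaks were thus gathered at the 3′ splice sites. Of 130 intronic Lin- peaks, 111 (85.4%) had their middle within 100 nt upstream of an exon, with a median distance of 21 nt, in a window that made up 6.44% of the intron bases of these genes. In CD11b+ cells it was 9 of 37 (24.3%), with a median distance of 671 nt. By library, the share was 93.6%, 55.6% and 77.8% in the biological Lin- libraries, 92%, 75% and 85.7% in the technical ones, 27.3% and 45.5% in the biological and 11.1% and 0% (0 of 6 peaks, which allows up to 50%) in the technical CD11b+ libraries, so that the cell types did not overlap. The means of 75.7% ± 19.1 (SD, n = 3) and 36.4% ± 12.9 (SD, n = 2) differed by 39.3 percentage points (exact permutation test, two-sided, p = 0.2). The same order was present in the whole transcriptome. Of all intronic peaks, 52.8% ± 19.2 in the biological Lin- libraries and 14.2% ± 2.33 in the CD11b+ libraries lay in this window, and in 8 of the 10 libraries the share of the mitosis genes was above that of all genes. Near the 5′ splice site, within 100 nt downstream of an exon, lay 31.5% of the intronic Lin- peaks of the mitosis genes and 27.5% of those of all genes.

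**Figure D3:**
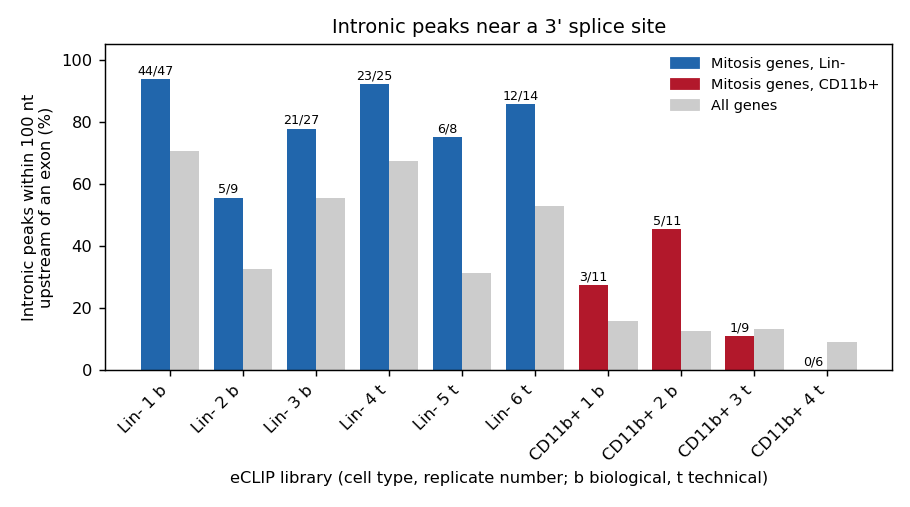
Share of intronic filtered peaks whose middle lies within 100 nt upstream of an exon, in percent, for the mitosis genes (coloured bars, with the number of peaks above) and for all genes (grey bars) in each of the 10 eCLIP libraries. The 6 Lin- libraries ranged from 55.6% to 93.6% and the 4 CD11b+ libraries from 0% to 45.5%.

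Further genes of mitosis also had peaks. Of 112 further genes in 5 lists (kinetochore, anaphase-promoting complex, condensin and cohesin, kinesins and spindle, and regulators of mitotic entry), 83 (74.1%) had a filtered peak in Lin- cells and 59 (52.7%) in CD11b+ cells, beside the 82.4% and 41.2% of the 34 genes and the 26.5% and 25.6% of all genes. Among all genes in the range of means of the mitosis genes, the shares were 66.8% and 51.8%, near those of the further genes. Some of the further genes had means below that range. The differences between these lists were not tested. The condensin and cohesin genes, which fold chromosomes and hold sister chromatids together, had the highest share of these lists, with 18 of 19 in Lin- and 15 of 19 in CD11b+ cells. Among them, Ncapd2, a condensin subunit, had 39 Lin- and 45 CD11b+ peaks and was found in all 10 libraries. The further kinetochore genes had the lowest, with 13 and 6 of 28. Of 36 DNA replication genes, which act in the preceding S phase, 32 had a peak in Lin- cells and 15 in CD11b+ cells. Per biological library, 37.6% ± 16.3 of the mitosis genes and 33.9% ± 23.6 of the replication genes had a peak (SD, n = 5), a difference within the spread (exact sign-flip test, two-sided, p = 0.438, where 0.0625 is the smallest possible p). The difference of 3.76 percentage points was 0.204 without CD11b+ replicate 1, 0.817 without CD11b+ replicate 2 and 7.80 without Lin- replicate 2, and turned to -2.45 with peaks of p below 0.001. In Lin- cells the shares were 61.8%, 26.5% and 47.1% of mitosis genes and 61.1%, 38.9% and 50% of replication genes. In CD11b+ cells they were 23.5% and 29.4% of mitosis genes and 5.56% and 13.9% of replication genes, so that the mitosis genes were higher in both CD11b+ libraries and in 1 of 3 Lin- libraries.

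All 34 mitosis genes were measured well above the lowest counts in both tables. The deposited mean normalised counts of the 34 genes ranged from 510.3 (Cdc25c) to 28600 (Mki67) in Lin- cells and from 195 (Cdc25c) to 8547 (Mki67) in CD11b+ cells. Per kb of exon, the median mitosis gene stood at the 79.0th percentile of the 16656 Lin- genes with a mean of at least 10, and all 34 were above the median of those genes. In CD11b+ cells the median was at the 66.9th percentile of 16179 genes, and 26 of 34 were above the 50th. Fewer dividing cells and less RNA of these genes per cell cannot be told apart in bulk RNA.

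Top2a had the highest level per kb of exon in both tables, with 3818 in Lin- and 1026 in CD11b+ cells, and Mki67 the next, with 2843 and 849. In Lin- cells, Cenpa (2278), Kif11 (1812) and Incenp (1698) followed by mean normalised count per kb, and in CD11b+ cells Incenp (828), Ccnb2 (819.9) and Cenpa (677). The lowest levels per kb in Lin- cells belonged to Mad2l1 (249), Cdc25c (262), Cenpf (327), Kif4 (363) and Ttk (389). In CD11b+ cells, the lowest per kb were Cenpf (57.3), Mad2l1 (82.7), Cdc25c (100.1), Cenpe (100.6) and Kif4 (113). The order of the 34 genes was similar in both tables (Spearman's rho 0.92 across genes). The means carry no error, as they are pooled over 6 libraries, so that neighbours in this order cannot be separated. The 3 genes without any peak, Cdc25c, Mad2l1 and Cenpf, were also the 3 with the lowest levels per kb in Lin- cells. This rests on the division by exon length. By mean normalised count in Lin- cells, Cenpf (3643) stood above the median of the 34 genes (2448), Mad2l1 (1999) below it and Cdc25c (510.3) lowest.

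**Figure D4:**
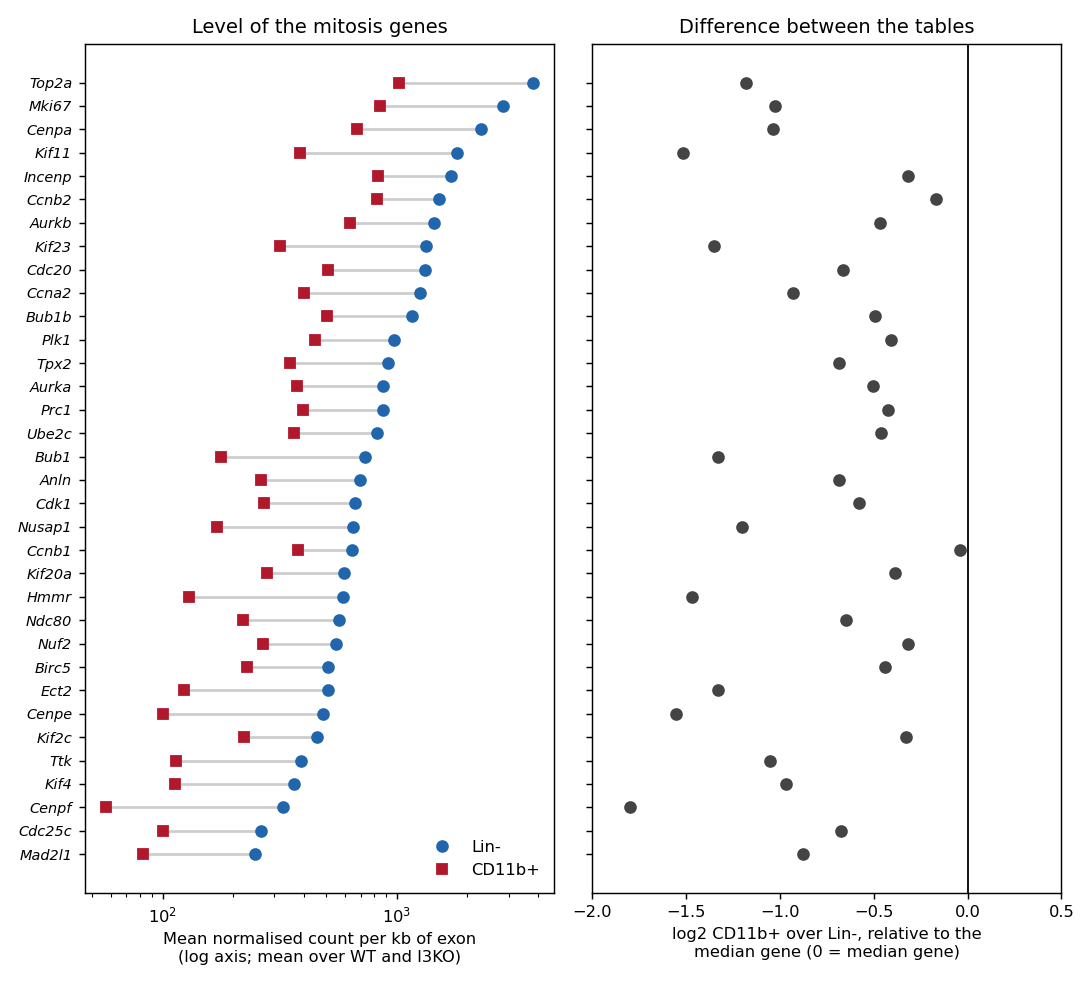
Left, mean normalised count per kb of exon of the 34 mitosis genes in Lin- cells (blue circles) and CD11b+ cells (red squares), on a log axis. Right, log2 of CD11b+ over Lin- relative to the median gene, where 0 is the median gene. All 34 points lay below 0, from -1.80 (Cenpf) to -0.04 (Ccnb1).

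Relative to the median of the 14658 genes measured in both tables, every mitosis gene had a lower level in CD11b+ than in Lin- cells. By construction 50% of all genes lay below this median, and 34 of 34 mitosis genes did. The median log2 difference of the 34 genes was -0.68, close to the lower quartile of all genes (-0.62), and 12 genes (35.3%) were lower by more than 1 log2 unit, against 15.5% of all genes. The tables were normalised separately, and with the sum of all means as the reference the median was -0.98 and again 34 of 34 lay below 0. The largest log2 differences were those of Cenpf (-1.80) and Cenpe (-1.55), both large kinetochore proteins, Kif11 (-1.52), Hmmr (-1.47) and Kif23 (-1.35). The smallest log2 differences were those of Ccnb1 (-0.04), Ccnb2 (-0.17), Nuf2 (-0.32), Incenp (-0.32) and Kif2c (-0.33), so that the mitotic cyclins B were nearest to the median gene. The log2 differences were lower for genes with more kb of exon (Spearman's rho -0.56 across the 34 genes), and this order was not adjusted for it. With no value per library, these differences could not be tested. Along with the mitosis genes, 30 of 36 replication genes lay below the median gene (median log2 difference -0.41), as did 18 of 19 condensin and cohesin genes (-0.56), 25 of 28 further kinesin and spindle genes (-0.57), 23 of 28 further kinetochore genes (-0.51), 14 of 20 regulators of mitotic entry (-0.20) and 11 of 17 further genes of the anaphase-promoting complex (-0.28). Of the 4 progenitor markers 3 lay below it as well, with mean normalised counts of Kit of 6974 in Lin- and 673 in CD11b+ cells and of Flt3 of 9396 and 390 (389.7).

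Promoters of the mitosis genes often held the letters TTTGAA and CCAAT. The list is made of late cell cycle genes, in which TTTGAA is a known site. Its high share is thus nearly given by the choice of genes, and no other cell cycle list was compared. TTTGAA, the core of the cell cycle genes homology region through which the DREAM and B-Myb complexes act on late cell cycle genes, occurred on either strand in the promoter of 21 of the 28 mitosis genes with a RefSeq window (75%, with 250 bases before to 50 after the start, GRCm38.p6), against 20.2% of 27025 genes. CCAAT, the site of NF-Y, occurred in 21 of 28 (75%) against 41.1%, and both in the same window in 18 of 28 (64.3%) against 7.97%. The windows of 5 genes with shared peak regions are shown around the match, with TTTGAA or its reverse complement TTCAAA in capitals.
Cdk1, minus strand of chromosome 10, match at -71: ctgattggctccTTTGAAcgtctacgtgca
Kif11, plus strand of chromosome 19, match at -19: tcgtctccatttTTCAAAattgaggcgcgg
Top2a, minus strand of chromosome 11, match at -179: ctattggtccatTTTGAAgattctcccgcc
Mki67, minus strand of chromosome 7, match at -116: ttagcgccagaaTTTGAAccgccgttttgg
Ect2, minus strand of chromosome 3, match at -114 or -138 from its 2 annotated starts: ccgtttaccggaTTTGAAacacactcacaa
Positions are those of the first base of the match relative to the annotated start. In Cdk1 and Top2a, the printed bases also hold ATTGG, the reverse complement of CCAAT, a few bases before the match. A match of letters is no measure of binding.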

How the data were processed

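The 34 mitosis genes and the other lists were chosen with earlier results of these data known. Per the labels and methods, RNA-seq reads (single-end, strand-specific, poly(A) selected) were mapped to mm10 with STAR (2.5.3a in the submitters' processing notes), with repeats masked by Bowtie2, and the authors compared genotypes with DESeq2. The signal used here is the mean normalised count per gene over both genotypes in each table the authors deposited. The fold changes, errors and p-values of the authors' comparison, and their columns on filtered eCLIP peaks, were not used, and genotypes were therefore not compared. eCLIP peaks were called per library by the authors with CLIPper, which deposited a p-value for each peak (at most 0.05) and a read number in its name (at least 3). Filtered peaks are those left after the authors removed peaks overlapping smInput peaks. Per the file headers, smInputs were deduplicated and called with other settings. Sequencing depth per library is not in the peak lists, so that intervals rest on peak counts alone.

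Peaks were given to genes by the Ensembl ID the authors had assigned, and placed by their middle base in GENCODE M21 basic gene models (merged exons, numbered along the gene). Distances were measured from the middle of a peak or merged region to the nearest merged exon. Levels were divided by kb of merged exon, and percentiles taken among genes with a mean of at least 10. Members and their sites were named by rule: values by library for genes with peaks in at least 2 biological libraries of a cell type or in a biological library of both, levels for the 5 highest and 5 lowest, and sequences at regions shared by at least 2 biological libraries, of which some are not reported here. Sequences were read from GRCm38.p6 with samtools 1.23.1, where the first coding bases of all 34 genes read ATG, and promoters from RefSeq, in which Aurkb, Ccna2, Cdc25c, Incenp, Kif20a and Tpx2 were not matched. Tests were exact permutation tests over biological libraries, written in Python 3.11.15 with NumPy 2.4.6, pandas 2.3.3 and SciPy 1.17.1 and tested on simulated data. The threshold was 0.05. Nothing states that biological replicates came from separate cultures or animals, so that p-values measure the spread between these libraries. Each smInput was taken from the sample of its eCLIP library, which pairs them by number. The technical libraries were not paired with biological ones in the labels and were left out of the tests. Splice site distances, the exclusion of the Top2a snoRNA and the Kif2c site, and the exclusion of Top2a and Mki67 were added after the data had been seen. Cenpb and Cdt1, of the further lists, were not analysed here.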

Additional observations from a re-analysis of the deposited data

Results flagged for a closer look

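Of 8 sets of libraries examined for a value far from the others, by the ratio of its gap to the range of the set, 1 had such a value. In the smInput of Lin- replicate 5, a technical library, 0.461% of peaks lay in mitosis genes, above the 0.150% to 0.221% of the other 5 Lin- smInputs. That library had 217 peaks in all, of which 1 lay in a mitosis gene, the Kif2c peak with 4 reads, so that the share rests on a single peak. About 1 in 20 such sets is marked by chance. The smInput of Lin- replicate 5 enters no test that uses biological libraries.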

How the results depend on the processing

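Results were recomputed under 89 alternatives, 75 planned and 14 chosen after seeing the data. The higher share of filtered peaks in Lin- cells kept its direction in all 12 alternatives (0.112 to 0.362 percentage points, p from 0.0667 to 0.75, exact permutation tests), as did the number of mitosis genes per library in all 10 (3.5 to 9.5 genes, p from 0.0524 to 1, exact permutation tests), and neither passed the threshold in any. The exonic share ranged from -3.33 to 14.5 percentage points when 1 replicate was left out, with the negative value without Lin- replicate 2. The lead of mitosis over replication genes turned to -2.45 percentage points with peaks of p below 0.001 (0.204 to 7.80 with 1 replicate left out). For eCLIP against smInput, the difference turned to -0.0113 percentage points with peaks of p below 0.001 and to -0.00364 in CD11b+ cells alone, and was 0.208 without the snoRNA and Kif2c sites, whose removal takes out nearly all smInput peaks, so that no p is given for it. The 3′ splice site difference passed it at 59.0 percentage points (p = 0.00476, exact permutation test) when technical libraries were counted as libraries, which are not independent, and lay between 30.2 and 49.3 with 1 replicate left out. Why these values moved was not tested.

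The number of mitosis genes with a peak fell from 28 to 13 in Lin- and from 14 to 4 in CD11b+ cells with peaks of p below 0.001, and was 15 and 5 for peaks in at least 2 biological libraries. From biological libraries with 1 left out it was 19 to 24 in Lin- and 8 to 10 in CD11b+ cells. The level ranks and the level difference kept their side in all 9 alternatives (78.8 to 86.8, 66.9 to 79.3, and -0.98 to -0.68).

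Lin- and CD11b+ libraries share replicate numbers but come from different cells, and nothing ties equal numbers, so they were not taken as pairs. With the number as a replicate block over replicates 1 and 2, the difference was 0.259 percentage points in the share, 6 in the number of genes, 9.52 in the exonic share and 38.2 in the splice site share, with p of 0.5, 1, 1 and 0.5 by exact sign-flip tests, where 0.5 is the smallest p of 2 pairs. Paired with its own smInput as a block, the eCLIP difference of 0.0969 had p = 0.438, and with all 10 libraries 0.0615 had p = 0.299 (exact sign-flip tests). The blocks changed no call of these results.

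Comparisons of 3 against 2 libraries allow no p below 0.1, most peaks held few reads (a median of 5 in both cell types), and counts of peaks per gene are too low to rank members in a single library.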

Other observations

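Beyond the 34 genes, some regulators of mitotic entry and transcription also carried sites. Of 20 such genes, 6 had peaks in at least 2 biological Lin- libraries and 7 in 2 biological CD11b+ libraries. Over all genes the shares were 13.7% and 10.2%, and in the range of means of the mitosis genes 37.7% and 22.2%. The genes named here were chosen for such peaks. E2f1, an activator of cell cycle transcription, had a peak in 3 biological Lin- and 2 biological CD11b+ libraries, and Lin54, the DNA-binding subunit of the DREAM complex, in all 6 Lin- libraries. E2f2 had 12 peaks over the 4 CD11b+ libraries. Foxm1, which drives late cell cycle genes, had 1 peak in each of 2 CD11b+ libraries, and Mybl2, the gene of B-Myb, in each of 2 Lin- libraries. Arhgap11a, a regulator of RhoA in cytokinesis, had 28 peaks in CD11b+ and 4 in Lin- libraries, and Ckap5 and Numa1, both spindle proteins, had 16 and 18 peaks over all 6 Lin- libraries. Among replication genes, Mcm7 had 39 Lin- peaks, Rrm2 18 and Mcm3 and Mcm5 13 each, and 0 of 36 had a peak in both biological CD11b+ libraries, against 10.2% of all genes.

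Across the 34 genes, the log2 level difference between CD11b+ and Lin- cells was lower for genes with more kb of merged exon (Spearman's rho -0.56, n = 34 genes). Across all 14658 genes rho was -0.33. Both are correlations across genes of the same pooled means.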
